A study of Mus musculus with 19 samples.

Results

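The 10 genes described here, of purinergic signalling, were followed in RNAseq data of hippocampal cells from 9 month-old male mice, out of the 60567 genes listed. They were chosen by name, with earlier results of these data in view, and all 10 were found. Extracellular ATP and ADP act on P2 receptors, and ectonucleotidases of the cell surface break them down to AMP and then to adenosine. Adenosine acts on its own receptors and is cleared by uptake and phosphorylation inside cells, which in the brain takes place largely in astrocytes. The 10 genes cover these steps. *Entpd1* (CD39) encodes an ectonucleotidase that hydrolyses ATP and ADP, *Entpd2* one of the same family that acts mainly on ATP, and *Nt5e* (CD73) encodes the enzyme that makes adenosine from AMP. *Adk* encodes adenosine kinase. *Adora1*, *Adora2a* and *Adora2b* encode adenosine receptors, *P2ry1* a receptor for ADP, and *P2rx4* and *P2rx7* ATP-gated channels.

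All 10 are protein-coding genes, at positions given by the authors' annotation on mm10. *Entpd1* is at chr19:40612366-40741602 (+ strand), *Entpd2* at chr2:25395874-25401323 (+ strand), *Nt5e* at chr9:88327609-88372089 (+ strand) and *Adk* at chr14:21052574-21448568 (+ strand). The adenosine receptor genes are *Adora1* at chr1:134199217-134235460 (- strand), *Adora2a* at chr10:75316877-75334794 (+ strand) and *Adora2b* at chr11:62248982-62266452 (+ strand). *P2ry1* is at chr3:61002785-61008982 (+ strand), *P2rx7* at chr5:122643910-122691432 (+ strand) and *P2rx4* at chr5:122707544-122729738 (+ strand).

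All mice received adeno-associated vectors with the gfaABC1D promoter, derived from that of GFAP, which drives expression in astrocytes. The 7 WT-GFP samples were GFP+ astrocytes of non-transgenic C57bl6 mice given the GFP vector. The 4 APP-GFP samples came from APP/PS1dE9 mice, a transgenic model of Alzheimer's disease that accumulates amyloid plaques, given the same vector. The 5 APP-SOCS3 samples came from APP mice given a vector for SOCS3, an inhibitor of the JAK2-STAT3 pathway, together with the GFP vector, at the same total dose of virus. The 3 GFP- samples held the other cells of WT-GFP hippocampi, which include microglia, neurons, oligodendrocyte precursor cells and astrocytes without vector. The vectors reach part of the hippocampus, myelin was removed before sorting, and whether samples came from separate mice is not stated in the labels. The paper's figure legend gives the numbers of the GFP+ groups (N = 7, 4 and 5) as mice. Its methods state that the left and right hippocampus of a mouse were sorted as separate preparations, so samples may still share a mouse. The *p* values measure the spread between these samples, which may be technical in part.

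Reads counted on genes ranged from 19331876 to 32621917 per sample. Levels are the reads of a gene divided by 1 size factor per sample, and 1 read was worth 0.756 to 1.18 units. The number of genes detected was 22050 to 26757 with SOCS3, 15575 to 25514 for WT-GFP and 16471 to 25273 for APP-GFP. WT-GFP replicates 1, 2 and 3 and APP-GFP replicate 2 had under 20000. Summed levels of 15 astrocyte markers were higher in every GFP+ sample than in the GFP- samples, and *Aqp4*, a water channel of astrocytes, was at 4872 ± 1991 (SD, n = 7) in WT-GFP astrocytes. Markers of other cell types were also detected in the GFP+ samples. Whether this RNA came from other cells or from the astrocytes was not tested. The paper reports the sorted cells as pure by cell type markers. It counts some of the microglial markers used below, such as *C1qa*, *C1qb* and *C1qc*, among genes that SOCS3 lowers in APP astrocytes. The summed level of 20 microglial markers, as a percent of the mean of the GFP- samples, ranged over 6.61 to 26.1% for WT-GFP astrocytes, 10.4 to 61.2% for those of APP-GFP mice and 4.78 to 10.1% for those with SOCS3. For 20 endothelial markers, it was 2.5 to 22.3%, 3.55 to 19.9% and 0.838 to 3.83%. The microglial marker *Cx3cr1* and the endothelial marker *Cldn5* were detected in every GFP+ sample.

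Upstream windows are shown for *Entpd2*, *Adk* and *Adora2b*, the 3 genes higher in all GFP+ samples, and for *Entpd1*, the relative of *Entpd2* that was higher in GFP- cells. Each is the 250 bases before a RefSeq start in GRCm38.p6, on the + strand. The *Entpd2* window is chr2:25395624-25395873, that of *Adk* chr14:21052324-21052573, that of *Adora2b* chr11:62248734-62248983 and that of *Entpd1* chr19:40612116-40612365. Capitals mark the half-site TTGGC of nuclear factor I, a family with known roles in astrocyte development, or its reverse complement.
Entpd2: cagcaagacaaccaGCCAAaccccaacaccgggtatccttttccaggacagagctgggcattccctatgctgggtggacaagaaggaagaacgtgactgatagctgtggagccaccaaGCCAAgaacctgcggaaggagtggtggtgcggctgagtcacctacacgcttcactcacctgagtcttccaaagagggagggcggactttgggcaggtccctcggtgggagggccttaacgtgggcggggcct
Adk: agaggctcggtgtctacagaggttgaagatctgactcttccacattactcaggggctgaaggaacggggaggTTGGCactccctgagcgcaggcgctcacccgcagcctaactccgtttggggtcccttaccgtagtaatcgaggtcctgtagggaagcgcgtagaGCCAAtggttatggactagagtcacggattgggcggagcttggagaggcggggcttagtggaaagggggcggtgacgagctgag
Adora2b: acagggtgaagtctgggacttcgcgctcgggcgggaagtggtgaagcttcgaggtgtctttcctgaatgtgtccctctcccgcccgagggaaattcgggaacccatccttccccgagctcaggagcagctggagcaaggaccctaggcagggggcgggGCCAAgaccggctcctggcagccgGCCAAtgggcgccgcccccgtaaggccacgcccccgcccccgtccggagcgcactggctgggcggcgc
Entpd1: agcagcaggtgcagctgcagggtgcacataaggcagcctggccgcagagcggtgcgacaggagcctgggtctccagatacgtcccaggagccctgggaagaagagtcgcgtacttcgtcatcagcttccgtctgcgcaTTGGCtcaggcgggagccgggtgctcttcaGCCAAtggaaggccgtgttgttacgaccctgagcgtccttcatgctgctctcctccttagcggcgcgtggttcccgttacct

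Windows were found for 9 of the 10 genes, with 13 starts, and none for *Adora2a*. Neither the STAT pattern TTCNNNGAA, present in 7.02% of all 32851 windows, nor the full nuclear factor I pattern, TTGGC and GCCAA with 5 bases between them, present in 0.0365%, was in any of the 13. The half-site was searched only after these 2 patterns had given no match, and the half-site is part of the full pattern. It was in 5 of 13 windows, of 4 genes, against 41.5% of all windows. The genes shown thus hold it on both sides of the comparison, and a match of letters is not a binding site. CpG dinucleotides numbered 4 to 24 per window, against a median of 6 over all windows.

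**Figure D1:**
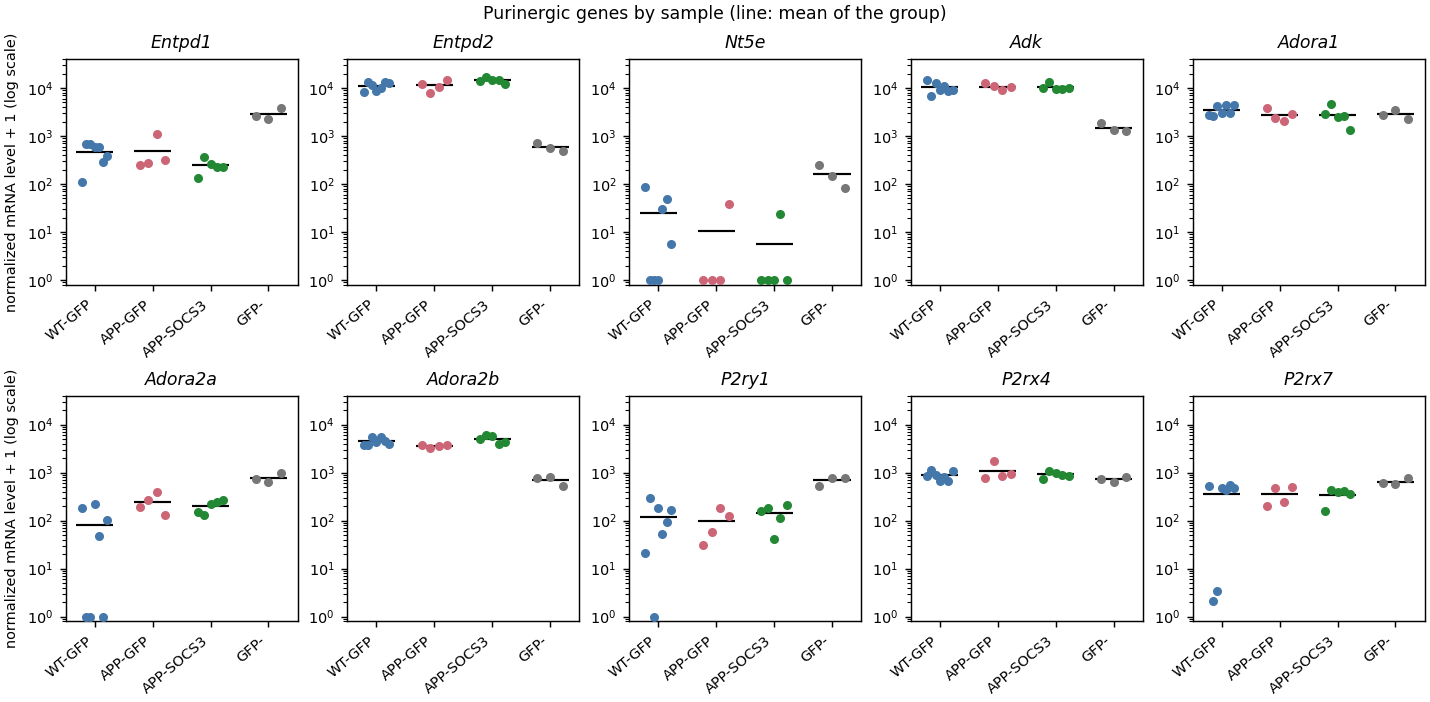
Normalized mRNA level + 1 (log scale) of the 10 genes in each sample, by group, with a line at the mean of the group. *Entpd2*, *Adk* and *Adora2b* are higher in all GFP+ samples than in the 3 GFP- samples, and *Entpd1* is lower in all of them.

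The first comparison asked where these genes are expressed, GFP+ astrocytes against GFP- cells of WT-GFP mice. It was part of what the genes were chosen on and is described without a test. *Entpd2* was the highest of the 10 per length. Its level was 8375, 11340 and 13362 (lowest, median and highest of 7) in astrocytes, against 721, 549.7 and 494.1 in the GFP- samples, an 18.9-fold ratio of means. No astrocyte sample came near the GFP- samples. *Adk* was at 6785, 9244 and 14971 in astrocytes against 1872, 1363 and 1260 (6.88-fold). *Adora2b*, a receptor of low affinity for adenosine, was at 3770, 4399 and 5533 against 787.3, 828 and 521.5 (6.3-fold). The groups of all 3 genes stood apart.

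*Entpd1* showed the opposite order, 107.8, 590.8 and 680.3 in astrocytes against 2648, 2281 and 3885 in GFP- cells, which were 6.2-fold higher. *Entpd1* and *Entpd2*, of the same enzyme family, were thus on different sides of the sort. *Adora2a* was at 0, 46.71 and 218.4 in astrocytes, with 3 of 7 samples at 0, and at 729.6, 623.1 and 1000.5 in GFP- cells. *P2ry1* was at 0, 91.22 and 297.5 against 529.2, 783.4 and 766.3. Both receptors were lower in every astrocyte sample.

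*P2rx7* was at 1.136, 474.8 and 540.1 in astrocytes and at 595.7, 572.4 and 780.5 in GFP- cells. Its groups did not overlap, but WT-GFP replicates 2 and 3, among the samples with few genes detected, were near 0. The other samples under 20000 genes were not, WT-GFP replicate 1 at 534.5 and APP-GFP replicate 2 at 466.8. The log2 difference of -2.54 became -0.42 without the samples under 20000 genes. *Nt5e* was low everywhere, at 0, 4.512 and 85.03 against 251.6, 149 and 80.43, and overlapped. *Adora1*, the high-affinity inhibitory adenosine receptor, was at 2654, 3061 and 4528.5 against 2761, 3398 and 2302. *P2rx4* was at 680.7, 852.6 and 1105 against 727.4, 632.9 and 817.6. The groups of both genes overlapped, and their log2 differences of 0.31 and 0.24 became -0.16 and -0.22 when upper quartiles were made equal.

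In all, 7 of the 10 genes did not overlap between GFP+ and GFP- samples, 3 higher and 4 lower. Over all genes the share was 34.8%, with 7.57% higher and 27.2% lower. The median log2 difference of all genes was -1.31, and it was -0.37 with edgeR and -1.74 with equal upper quartiles.

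Per kb of exonic sequence, mean levels in WT-GFP astrocytes ran from *Entpd2* (5225) through *Adora2b* (2431), *Adk* (1210), *Adora1* (609.3), *P2rx4* (123.7), *Entpd1* (85), *P2rx7* (59), *P2ry1* (26.9) and *Adora2a* (25.5) to *Nt5e* (2.77). In GFP- cells *Entpd1* (526.5) and *Adora1* (487.5) led, and *Nt5e* (18.6) was again last. Lengths are those of all exons in GENCODE M21, not of the constitutive regions that were counted. Of the 10 genes, *Entpd2*, *Adora1*, *P2ry1* and *P2rx7* share exonic bases with a neighbouring gene, and whether counting used the strand is not stated.

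Of the other genes of the pathway, from a list of 45 found, 39 were tested between GFP+ and GFP- cells with limma. This list, too, was chosen with earlier results of these data known, so its *p* values here are descriptive. A gene was called when it passed both an unadjusted *p* of 0.05 and a 1.5-fold change. This held for 26 of the 39, 5 higher and 21 lower. Over all genes 42.8% were called, 9.25% higher and 33.5% lower. The median log2 difference of the list was -2.23, also with genes at 0 set at their bounds, against -1.31 for all genes. All 6 tested genes of the list with a P2ry symbol were lower, as was *Adora3*, and 4 of 5 other surface enzymes.

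*Slc28a2*, a concentrative nucleoside transporter, was at 0 in all 7 astrocyte samples and at 181.9, 93.77 and 165.3 in GFP- cells, at least 48.4-fold higher against a floor of 3 reads per sample. *P2ry10* was likewise at 0 against 107.8, 48.4 and 124.6, at least 30.8-fold higher. *Enpp3*, an ectonucleotide pyrophosphatase, was at 40.6 in WT-GFP replicate 7 and at 0 in the other 6 samples, against 203.6, 99.06 and 81.32 (log2 difference -6.13 ± 1.2 SE, adjusted *p* = 0.00288, limma). The *Enpp3* call was lost with edgeR and DESeq2 (adjusted *p* = 0.166 and 0.222). *P2ry10* was not at 0 in all GFP+ samples, with 60.01 in APP-SOCS3 replicate 3.

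The genes with the largest differences in the other direction were *Slc29a2*, an equilibrative nucleoside transporter (log2 difference 2.19 ± 0.455 SE, adjusted *p* = 0.00416), the channel subunit gene *P2rx6* (2.16 ± 0.472, adjusted *p* = 0.00551) and *Ampd2*, an AMP deaminase (1.24 ± 0.321, adjusted *p* = 0.0142), all with limma. Their groups did not overlap. The call of *Ampd2* was lost with equal upper quartiles (0.77) and that of *P2rx6* with all 19 samples in 1 fit.

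**Figure D2:**
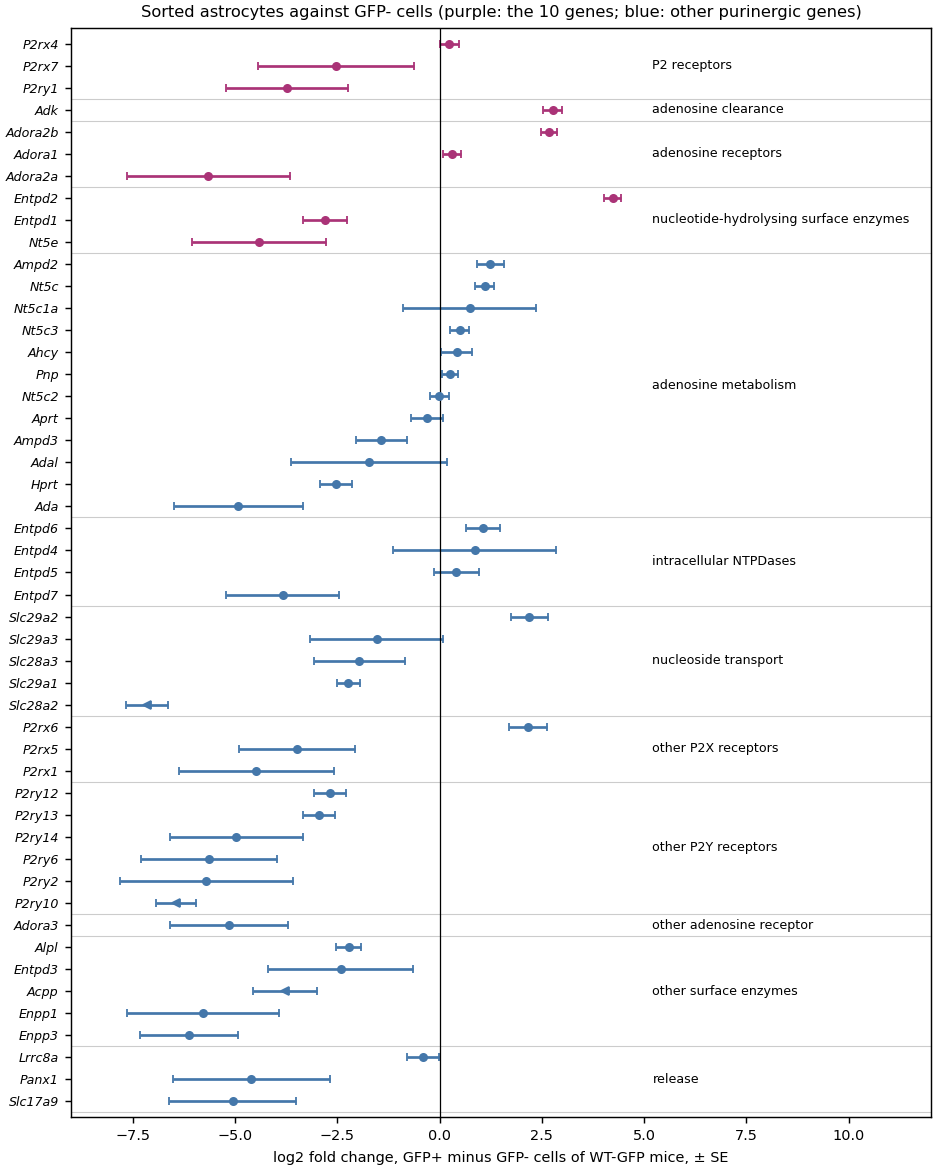
Log2 fold change, GFP+ minus GFP- cells of WT-GFP mice, ± SE, for the 10 genes (purple) and the other tested purinergic genes (blue), grouped by role; triangles mark genes at 0 in all GFP+ samples, where the point depends on the pseudocount. *Entpd2* has the highest value (4.23), and all genes shown with a P2ry symbol lie below 0.

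The second comparison asked what differs in astrocytes of APP mice. Of the 10 genes, 1 was called between APP-GFP and WT-GFP astrocytes, against 2.23% of all genes tested, passing an unadjusted *p* of 0.05 and a 1.5-fold change. This was *Adora2a*, at 191.9, 272.3, 395.7 and 129.9 in the 4 APP-GFP samples and at 0, 46.71 and 218.4 (lowest, median, highest) in WT-GFP. The groups overlapped, and WT-GFP replicates 2, 3 and 6 were at 0. The log2 difference was 3.9 ± 1.73 (SE), with *p* = 0.0421 and adjusted *p* = 0.999 (limma) and an exact permutation *p* of 0.0424. The ratio of means was 3.17, and the call was lost with edgeR (log2 difference 1.68) and without the samples under 20000 genes (2.74).

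*Adora2b* was lower in all 4 APP-GFP samples, at 3700, 3228, 3589 and 3758, than in the 7 WT-GFP samples, at 3770, 4399 and 5533 (lowest, median and highest). The nearest samples of the groups were almost equal. The log2 difference was -0.32 ± 0.155 (SE), short of the fold threshold, with *p* = 0.0632 and adjusted *p* = 0.999 (limma) and an exact permutation *p* of 0.0364. Groups did not overlap for 0.313% of all genes, 0.0827% with the lower values in APP-GFP.

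For the other 8 genes the groups overlapped and no call was made. Log2 differences were 0.02 ± 0.19 (SE) for *Entpd2*, 0.09 ± 0.198 for *Adk*, -0.05 ± 0.565 for *Entpd1* and -0.36 ± 0.223 for *Adora1*. None of 35 other purinergic genes tested was called with limma, where none had an unadjusted *p* under 0.05. With edgeR 2 and with DESeq2 1 were called.

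The 3 P2 receptors had overlapping ranges in the 3 groups of astrocytes. *P2ry1* ranged from 29.87 to 178.1 without SOCS3 and from 40.01 to 208.3 with it in APP mice, and *P2rx7* at 203.7 to 506.5 and 160.1 to 436.2. No sample of these groups was at 0 for either gene. *P2rx4* ranged from 763.1 to 1758 and from 746.3 to 1084. *Adora1* was at 2009 to 3816 and 1360 to 4642, and *Adk* at 8973 to 12564 and 9538 to 13025. These ranges also overlapped those of WT-GFP astrocytes.

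**Figure D3:**
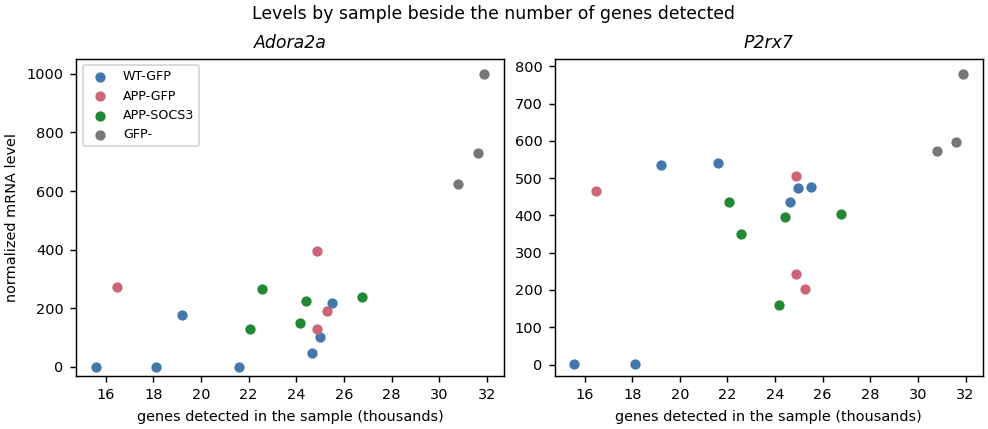
Normalized level of *Adora2a* and *P2rx7* in each sample against the number of genes detected in it (in units of 1000), coloured by group. Samples of *Adora2a* at 0 and of *P2rx7* near 0 are all WT-GFP, most of them with under 20000 genes detected.

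The third comparison asked what SOCS3 changes in APP astrocytes. With limma, none of the 9 genes tested was called, where 1 had an unadjusted *p* under 0.05, and edgeR and DESeq2 called 0. Over all genes 5.7% were called. The gene with the low *p* was *Adora2b*, at 5058, 5973, 5651, 3936 and 4381 in the 5 APP-SOCS3 samples against 3700, 3228, 3589 and 3758. Every APP-SOCS3 sample was above every APP-GFP sample. The log2 difference was 0.47 ± 0.148 (SE), a 1.39-fold change under the threshold of 1.5, with *p* = 0.00847 and adjusted *p* = 0.641 (limma) and an exact permutation *p* of 0.0159. Groups did not overlap for 2.01% of all genes, 0.924% with the higher values in APP-SOCS3. Both comparisons of *Adora2b* use the same 4 APP-GFP samples.

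*Entpd2* was at 13810, 16589, 14870, 14602 and 11988 with SOCS3 against 12363, 8005, 10394 and 14604 (log2 difference 0.37 ± 0.172 SE, limma adjusted *p* = 0.811, exact permutation *p* = 0.0952), and the groups overlapped. *Entpd1* was at 130.3, 360.9, 264, 230.3 and 228.5 against 250.7, 267.5, 1126 and 319.1 (-0.77 ± 0.469, adjusted *p* = 0.816). APP-GFP replicate 3, the highest, also had the highest microglial marker sum of the GFP+ samples (61.2%). APP-GFP replicate 2 had the next highest sum (48.6%), with *Entpd1* at 267.5. With the microglial markers as a covariate, the *Entpd1* difference was 0.03. The sums did not overlap between these groups, so marker level goes with group. This fit separates them poorly at best, and a source of *Entpd1* was not tested. *Nt5e* was under the minimum level and was not tested.

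Of 33 other purinergic genes tested, 6 were called between APP-SOCS3 and APP-GFP, all lower, against 3.37% of all genes called lower. *P2ry12*, *P2ry13* and *P2ry14* encode P2Y receptors, and *P2ry12* and *P2ry13* are known for their expression in microglia. *P2ry13* was at 218.6, 227, 122, 245 and 231.1 against 420.9, 2091, 2056 and 697.4 (log2 difference -2.38 ± 0.475 SE, adjusted *p* = 0.363, limma) without overlap. *P2ry12* fell by 0.94 and *P2ry14*, whose entry also covers another transcript, by 4.9 on the log2 scale (adjusted *p* = 0.647 and 0.577, limma). *Lrrc8a*, a subunit of volume-regulated anion channels (shared entry, -0.8), *Enpp1* (-3.97) and *Hprt* (-0.87), of purine salvage, were the others, with adjusted *p* of 0.576, 0.706 and 0.681 (limma). *Enpp1* was highest in APP-GFP replicate 2 (421.2), and its call was lost with edgeR, with a minimum level of 100 and without samples under 20000 genes. That of *Hprt* was lost with equal upper quartiles (-0.7) and without those samples (-0.72).

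In the same comparison, 19 of 20 microglial and 18 of 19 endothelial markers were called lower. With the microglial markers as a covariate 0 of the 33 genes were called, and with the endothelial markers 1. Microglial sums did not overlap between the groups (4.78 to 10.1% in APP-SOCS3, 10.4 to 61.2% in APP-GFP). Marker level thus goes with group. The fit with this covariate separates them poorly at best, and the lost calls decide nothing. The part of these cells in the 6 calls was not tested further. Fewer cells of a type, less RNA per cell and lower expression within the astrocytes cannot be told apart in such samples.

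**Figure D4:**
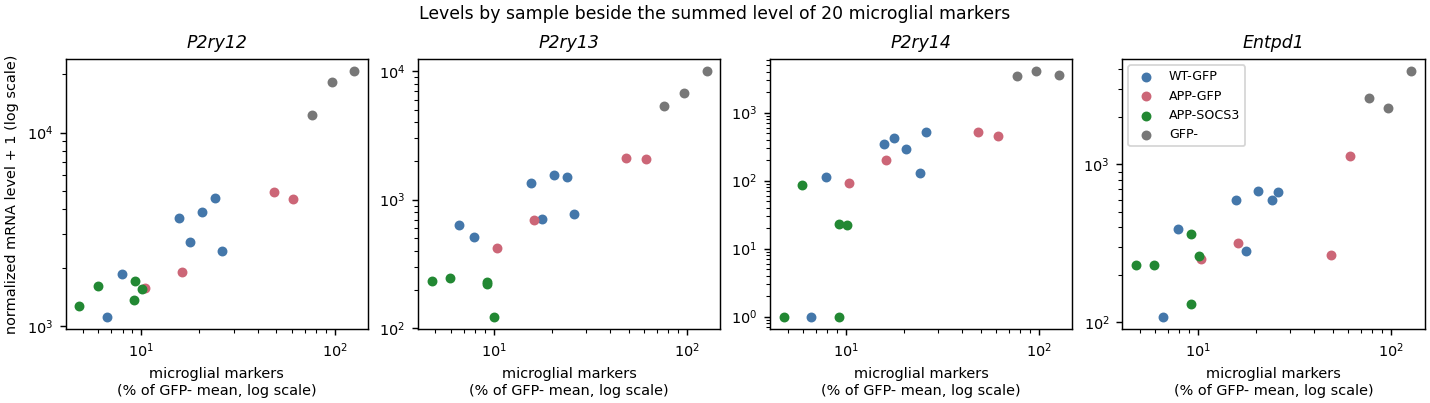
Normalized level + 1 (log scale) of *P2ry12*, *P2ry13*, *P2ry14* and *Entpd1* in each sample against the summed level of 20 microglial markers, as a percent of the GFP- mean (log scale). APP-SOCS3 samples lie between 4.78 and 10.1% and APP-GFP samples between 10.4 and 61.2% on the horizontal axis.

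APP-SOCS3 and WT-GFP astrocytes, which differ in genotype and vector, gave 1 called gene of 10, again *Adora2a*, against 5.21% of all genes. None of the 10 was without overlap, against 0.566%. It was at 150.1, 128.4, 224, 238.2 and 267.2 with SOCS3, with a log2 difference of 3.67 ± 1.53 (SE), a limma adjusted *p* of 0.826 and an unadjusted one of 0.0305. Its exact permutation *p* was 0.0606, and it was 0.0303 when counted as the doubled 1-sided value, a count added after the values had been seen. The WT-GFP samples at 0 are the same as above, and the call was lost with edgeR (log2 difference 1.39), DESeq2 (1.37) and either marker covariate. *Entpd2* was higher by 0.39 ± 0.145 on the log2 scale (1.31-fold, *p* = 0.0188, adjusted *p* = 0.756, limma, exact permutation *p* = 0.0265), under the fold threshold, which it passed with equal upper quartiles (0.73) and the endothelial covariate (0.68).

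Of 34 other purinergic genes, 6 were called between APP-SOCS3 and WT-GFP, against 5.21% of all genes. *P2ry13* was lower without overlap (log2 difference -2.17 ± 0.332 SE, adjusted *p* = 0.0498, limma), and it was the one with an adjusted *p* under 0.05, as for 0.0305% of all genes. *P2ry12* (-0.83), *P2ry14* (-3.79), the equilibrative transporter gene *Slc29a1* (-1.55) and *Hprt* (-0.87) were also lower, and *Slc29a2* (0.78) was higher. The *Slc29a2* call was lost with edgeR (0.66), DESeq2 (0.63) and without samples under 20000 genes (0.24), that of *Hprt* with equal upper quartiles (-0.52) and without those samples (-0.81), that of *P2ry12* with equal upper quartiles (-0.48) and that of *P2ry14* with a pseudocount of 0.1. Here 11 of 20 microglial and 15 of 20 endothelial markers were called lower. With these markers as covariates, 3 and 1 of the 34 genes were called, and their part was not tested further.

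**Figure D5:**
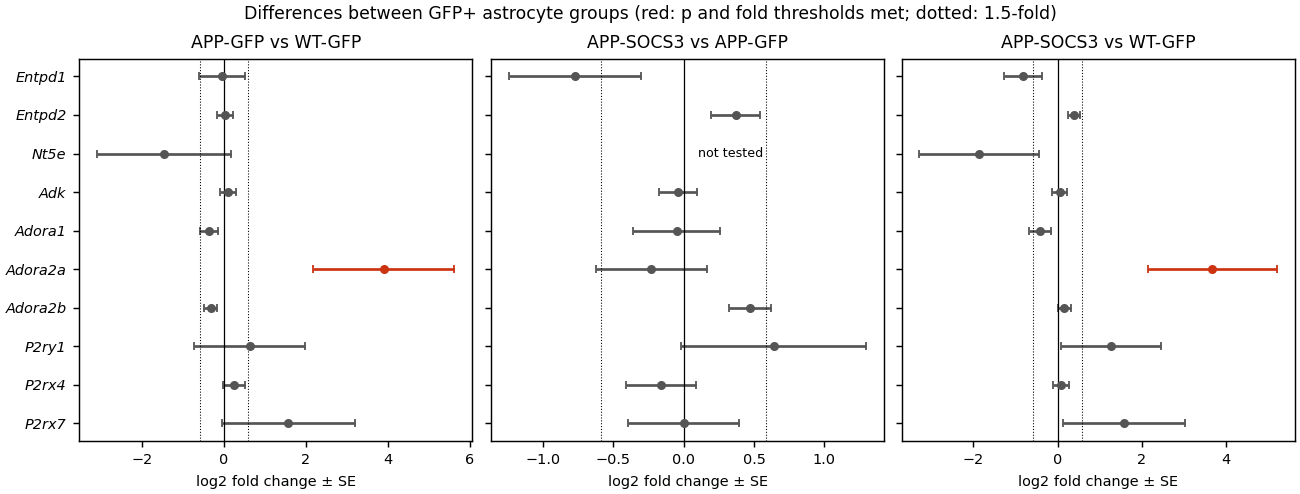
Log2 fold change ± SE of the 10 genes in the 3 comparisons of GFP+ astrocytes, with dotted lines at a fold change of 1.5 and called genes in red; the horizontal scales differ. *Adora2a* is the one called gene, in both comparisons with WT-GFP.

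By the root mean square difference of centred log2 levels over the 19 samples, the pattern of *Entpd2* was most like that of *Gpt* (0.207), *Paqr6* and *Fjx1*. That of *Adk* was most like *St3gal4* (0.165), *Cadm1* and *Gm10677*, and that of *Adora2b* most like *Mras* (0.235), *Arxes2* and *Gm10677*. The pattern of *Entpd1* was nearest to *Unc93b1* (0.544), *P2ry12* (0.545) and *Tuba1c*. The samples share the sort and the depth of each library.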

How the data were processed

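RNAseq was done by the authors on sorted cells of 19 samples, grouped by the labels. RNA was amplified with a low-input kit, reads were mapped with STAR 2.4.0 to mm10 and counted on constitutive regions of FAST DB genes, and what the authors deposited is a signal for each gene, its reads divided by 1 DESeq2 size factor per sample. All deposited values (100%) were whole multiples of 1 read within 0.01 reads, so reads could be recovered. Of 60567 genes, 34671 had no symbol.

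The 10 genes and all lists were chosen with earlier results of these data known. Of 46 other purinergic genes listed, 45 were found. From log2(level + 1), groups were compared by limma 3.58.1 (R 4.3.3, mean-variance trend, no covariates) over genes whose mean level reached 10 in 1 of the groups or both. A call needed an unadjusted *p* up to 0.05 and a 1.5-fold change or more. Benjamini-Hochberg adjusted *p* values cover all genes tested. Fold changes are on the log2(level + 1) scale, which shrinks changes of genes low in all samples and can exceed the ratio of means where some samples are at 0.

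Two-sided exact permutation *p* values are the share of splits with an absolute difference of mean log2 levels at least as large, and the smallest possible are 0.00303 (APP-GFP vs WT-GFP), 0.00794 (APP-SOCS3 vs APP-GFP) and 0.00126 (APP-SOCS3 vs WT-GFP). The smaller 1-sided *p* multiplied by 2 was computed as well, after the values had been seen. Of 29 tests of the 10 genes, 4 were at most 0.05 by the first count and 5 by the second. The first is reported, and the second is given for the 1 test where they differ in side. The half-site search was also added after seeing the data.

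Named genes were the 10, other purinergic genes called between astrocyte groups, the 3 largest called differences in each direction between GFP+ and GFP- cells, and for each of the 10 with a mean level of at least 100 the 3 genes of most similar pattern. Alternatives included edgeR 4.0.16 and DESeq2 1.42.0 on whole reads. A marker covariate was the mean log2(level + 1) of the markers of a cell type, not their summed level. The tests were checked on simulated reads.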

Additional observations from a re-analysis of the deposited data

Results flagged for a closer look

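In all, 5 of 30 groups had 1 sample far from the others (Dixon's test), where chance gives about 1 in 20 for normal values. Levels were tested without logs and the genes share samples, so this rate is a rough guide only. *Entpd1* was at 1126 in APP-GFP replicate 3, against 319.1 in the next sample. *P2rx4* was at 1758 in APP-GFP replicate 2, against 916.3. *Adk* was at 13025 in APP-SOCS3 replicate 2, against 10135. *Nt5e* was at 37.49 in APP-GFP replicate 4 and at 22.54 in APP-SOCS3 replicate 4, with all other samples of these groups at 0, which fixes the flag, so these 2 cannot be set against that rate.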

How the results depend on the processing

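*Nt5e*, *Adora2a*, *P2ry1* and *P2rx7* had samples at or near 0, where precision is lowest. Total reads did not strictly order these samples. WT-GFP replicate 7, with the fewest reads of the GFP+ samples (19331876), had *P2rx7* at 474.8 and *Adora2a* at 103.8. WT-GFP replicates 2, 3 and 6, with *Adora2a* at 0, had 23271289, 20890373 and 22574875 reads, fewer than replicates 1, 4 and 5. A part of depth was not tested. Of 1397 values of single genes under an alternative, 1219 kept direction and call, 101 lost the call, 9 gained one, 61 changed sign, and 7 values without a test moved by more than 1 SD. The cause of the changes was not tested.

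Of the 10 genes between APP-GFP and WT-GFP, 1 was called, and 0 with adjusted *p*, with a pseudocount of 0.1, with a minimum level of 100, with edgeR, with DESeq2 and without samples under 20000 genes (an alternative chosen after seeing the data). Leaving out 1 sample gave 0 to 1, with 0 without WT-GFP replicate 2, 3 or 6 or any APP-GFP sample. Between APP-SOCS3 and WT-GFP, 1 was called, and 0 with adjusted *p* or the microglial covariate and 2 with equal upper quartiles. Leaving out 1 sample gave 0 to 2, with 0 without WT-GFP replicate 2, 3 or 6 or APP-SOCS3 replicate 3, 4 or 5. The gene called also changed. *Entpd1* was called in place of *Adora2a* with edgeR (-0.92), DESeq2 (-0.97) and without samples under 20000 genes (-0.94, with *Adora2a* at 2.59), and *Entpd2* with the endothelial covariate (0.68, with *Adora2a* at 1.52). The microglial covariate gave 2.15 for *Adora2a*, and the second gene with equal upper quartiles was *Entpd2* (0.73). Between APP-SOCS3 and APP-GFP, 0 were called, and 1 with equal upper quartiles (*Adora2b*, 0.65).

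Of the other purinergic genes, 0 were called between APP-GFP and WT-GFP, and 1 with equal upper quartiles or DESeq2, 2 with all 19 samples in 1 fit, with edgeR or without samples under 20000 genes, and 4 with the microglial covariate (0 to 2 leaving out 1 sample). Between APP-SOCS3 and APP-GFP, 6 were called, with 4 to 8 leaving out 1 sample. The number was 0 with adjusted *p*, 3 at a fold change of 2 and 1 with the endothelial covariate. The microglial covariate also gave 0, where the summed markers did not overlap between the groups. Between APP-SOCS3 and WT-GFP, 6 were called, and 1 with adjusted *p* or the endothelial covariate and 3 at a fold change of 2 or with the microglial covariate (3 to 7 leaving out 1 sample, 3 without APP-SOCS3 replicate 5). Between GFP+ and GFP- cells, 26 were called, and 17 with edgeR and 16 with DESeq2. Over all 26709 genes tested, 11419 were called with limma, 8588 with edgeR and 8957 with DESeq2.

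Equal upper quartiles moved the median log2 difference of all genes from 0.09 to 0.27 (APP-GFP vs WT-GFP), from 0.08 to 0.24 (APP-SOCS3 vs APP-GFP) and from 0.19 to 0.52 (APP-SOCS3 vs WT-GFP). The share of higher among called genes went from 74.5 to 91.6%, from 40.9 to 45.9% and from 61.2 to 83.8%, and with DESeq2 to 38.7, 34.2 and 29.2%.

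Signs changed as follows, on the log2 scale. Between APP-GFP and WT-GFP, *Entpd1* was 0.12 with equal upper quartiles, 0.1 with edgeR, 0.04 with DESeq2 and 0.01 without samples under 20000 genes. *P2ry1* was -0.21 with edgeR, -0.26 with DESeq2 and -0.32 without those samples, where *P2rx7* was -0.71. Between APP-SOCS3 and APP-GFP, equal upper quartiles gave 0.14 for *Adk*, 0.12 for *Adora1* and 0.01 for *P2rx4*. *Adora1* was 0.03 with edgeR and 0.02 with DESeq2, and *P2rx7* -0.01 with DESeq2. The microglial covariate gave 0.03 for *Entpd1*, 0.19 for *Adora2a*, 0.24 for *P2rx4*, 0.16 for *P2ry12* and 0.07 for *Hprt*. The endothelial covariate gave 0.32 for *Adora1*, 0.14 for *P2rx4* and -0.29 for *P2rx7*, and *P2rx4* was 0.1 without samples under 20000 genes. Between APP-SOCS3 and WT-GFP, *Adk* was -0.07 with the microglial covariate. The endothelial covariate gave -0.28 for *Adk*, 0.05 for *Adora1*, -0.67 for *P2rx7* and 0.46 for *P2ry14*. *P2rx7* was -0.01 with DESeq2 and -0.54 without samples under 20000 genes.

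Leaving out 1 sample gave, between APP-GFP and WT-GFP, -0.56 to 0.16 for *Entpd1*, -0.12 to 0.17 for *Entpd2*, 0 to 0.19 for *Adk*, -0.31 to 1.08 for *P2ry1* and -0.02 to 0.38 for *P2rx4*. Between APP-SOCS3 and APP-GFP it gave -0.12 to 0.04 for *Adk*, -0.26 to 0.18 for *Adora1*, -0.5 to 0.03 for *Adora2a*, -0.3 to 0.1 for *P2rx4* and -0.23 to 0.26 for *P2rx7*. Between APP-SOCS3 and WT-GFP it gave -0.04 to 0.15 for *Adk*.

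Whether replicate numbers pair the samples was left undecided. Correlations of same-numbered samples ran from -0.177 to 0.242 over the comparisons, and some but not all samples correlated best with their own number. In GFP+ vs GFP- it was so for replicates 1 and 2 and not for replicate 3. Comparisons without a block treat the samples as independent. With the replicate number as a block, 0 of the 10 genes were called between APP-GFP and WT-GFP and 2 between APP-SOCS3 and WT-GFP, where *Entpd1* (-0.94) was added, and 2 other purinergic genes between APP-GFP and WT-GFP. The block gave 0.18 for *Adora1* and -0.02 for *P2rx7* (APP-SOCS3 vs APP-GFP) and -0.02 for *Adk* (APP-SOCS3 vs WT-GFP). With the block the calls of *Hprt* (-0.74, APP-SOCS3 vs APP-GFP), *P2ry14* (-3.44, APP-SOCS3 vs WT-GFP) and *Ampd2* (0.78, GFP+ vs GFP-) were lost.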
